A study of Mus musculus with 4 samples.

Results

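The genes described here are 43 interferon response genes, a set of symbols listed for their known induction by interferon, among 25737 genes that could be named in the deposited tables. They were picked by symbol, by a list drawn up with earlier results of these data known. RNA was sequenced from stromal cells of the adult mouse prostate, taken by flow cytometry as lineage-negative, CD24-negative, CD49f-negative and Sca-1-positive cells from C57BL/6 mice. There were 2 libraries from distal ducts and 2 from proximal ducts, and each is named here by its region and the number in its label: distal 2, distal 3, proximal 2 or proximal 3. The labels name no treatment, no genotype other than the strain, no sex and no age beyond adult, and they do not say how many mice gave each library or what the numbers stand for. Libraries with the same number may share an animal, a day or a preparation, so the p-values below measure only the spread between these 4 libraries.

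Interferons are secreted proteins, and those of type I and type III are released by cells that sense foreign or misplaced nucleic acid. Type I and type III interferons act through JAK1 and TYK2 on a complex with STAT2 and IRF9 that binds the interferon-stimulated response element (ISRE), and interferon gamma acts through JAK1 and JAK2 and leads to binding at the gamma-activated site (GAS). The induced genes encode proteins that bind or degrade viral RNA, modify host proteins, coat intracellular vacuoles or feed back on the pathway. Fibroblasts are known to respond to type I interferons and to interferon gamma.

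The interferon response genes differed by library number and far less by region. Summed over the members, FPKM (fragments scaled to transcript length and to all mapped fragments) was 2475 in distal 2 and 2418 in proximal 2, against 4905 in distal 3 and 5013 in proximal 3. The median member was at 8.68 and 8.29 FPKM in the libraries numbered 2 and at 38.5 and 41.5 FPKM in those numbered 3. Ifitm3, a membrane protein that blocks virus entry, held much of the sum, and without it the sums were 764.9 and 853.1 FPKM against 2561 and 2831 FPKM. Both libraries numbered 3 lay above both numbered 2 in each of these summaries, whatever the region.

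Members were tested where 2 or more libraries held at least 1 FPKM, which left 41 of the 43, without Oas3 and Ifi44. Differences are given on the scale of log2(FPKM + 1), which understates the change of low genes, with the standard error (SE) of limma's moderated test on 2 against 2 libraries, and a gene was called at an adjusted p under 0.05 over all 11271 genes tested. Between the numbers, 31 members were called higher in number 3 and 0 lower, where 4.29% of all tested genes were called higher and 14.5% lower (18.8% in either direction). Both number 3 values lay above both number 2 values for 36 of the 41 members (20.2% of all tested genes) and below them for 1, Irf1 (50.4% of all tested genes). The median difference of number 3 minus number 2 was 1.82 for the members and -0.33 for all tested genes, and 29 members were at least 2-fold higher in number 3 in both regions, as were 4.83% of all tested genes. A scaling to equal median ratios moved the median of all genes to 0.01 and that of the members to 2.20, with 33 members called higher; the share of higher values among all called genes was 22.8% as deposited, 53.0% with that scaling and 52.1% after quantile normalization. With 1 library numbered 2 left out, no gene was called between numbers (limma, 0 members without distal 2 and 0 without proximal 2), and 20 members were called without distal 3 and 22 without proximal 3; the members' median difference stayed between 1.77 and 1.94.

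Each of the 31 called members was higher in number 3 in both regions. Number 3 was 1.86- to 24.0-fold above number 2 within the distal libraries (median 5.98-fold) and 1.82- to 30.2-fold within the proximal ones (median 6.02-fold). For 34 of the tested members the deposited lower FPKM bounds of both libraries numbered 3 lay above the deposited upper bounds of both numbered 2 (12.8% of all tested genes); these bounds, summed over the transcripts of a gene, cover the estimation error within a library only. Of the 20 genes with the largest difference between numbers among all 11271, 7 were members, with Ifit1 at rank 1, Rsad2 at 5, Irgm1 at 8, Parp14 at 9, Iigp1 at 10, Usp18 at 13 and Isg15 at 14.

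**Figure D1:**
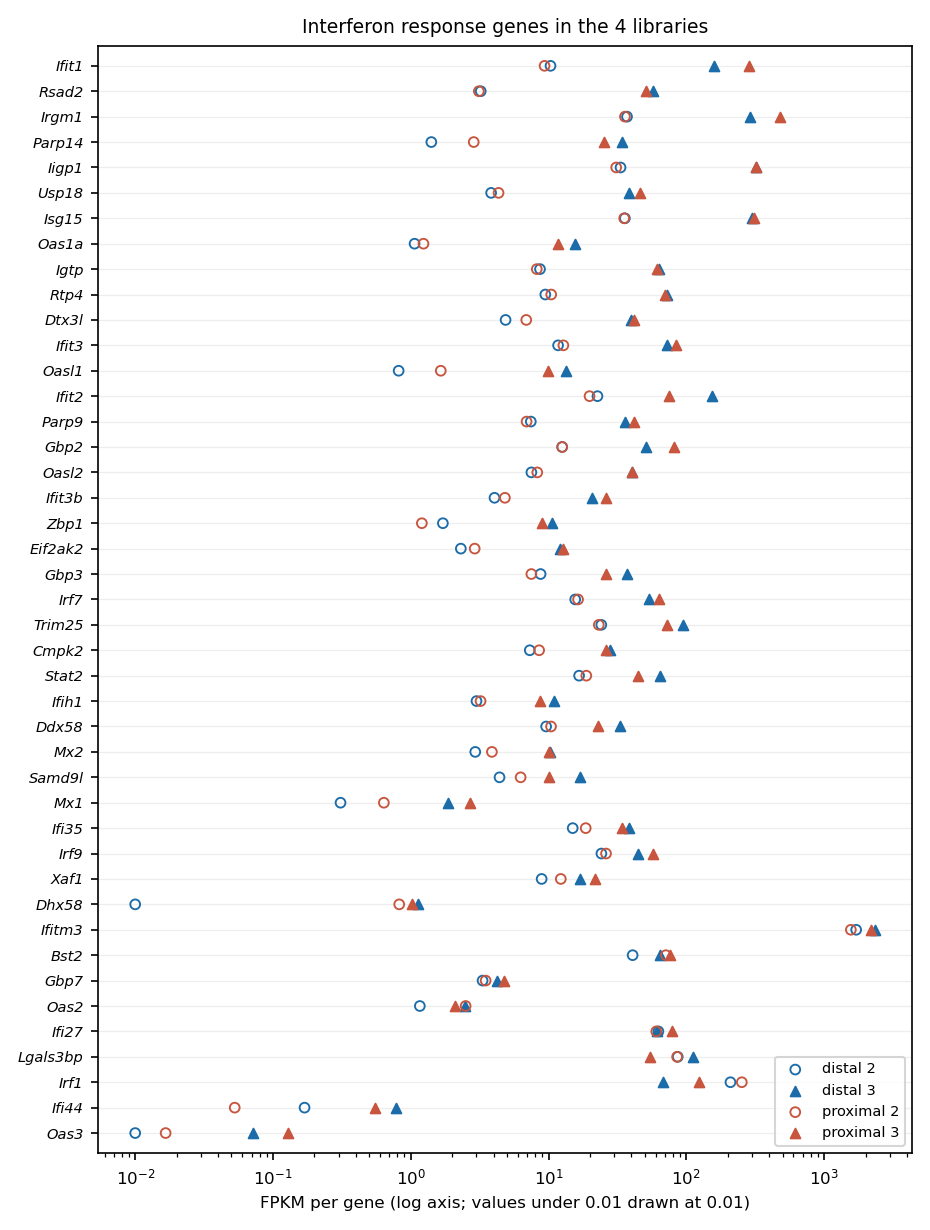
FPKM of each interferon response gene (rows) on a log axis, with 1 point per library; open circles are the libraries numbered 2, filled marks those numbered 3, and colour gives the region. For most genes the 2 regions overlie each other while number 3 sits to the right of number 2, with Irf1 the reverse and Ifitm3 highest of all.

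Between regions no member was called (limma, 0 of 41 at an adjusted p under 0.05 and 0 at an unadjusted p under 0.05), and 0% of all tested genes were called, with 356 at an unadjusted p under 0.05. The median difference of proximal minus distal was 0.07 for the members and 0.09 for all tested genes, and 27 of 41 members had a value above 0 where 60.4% of all tested genes did. The sign of the members' median turned negative (-0.033 under median ratio scaling, -0.034 after quantile normalization). Single members ranged from -0.60 to 0.57, and the median absolute difference was 0.17 against 0.24 for all tested genes. By number the same median absolute differences were 1.82 and 0.57. Because the region test counts the spread between numbers as error, its SE for a member such as Isg15 was 1.37, so differences between regions well above the observed ones could not have been called. Within number 2 the members' median region difference was 0.11 and within number 3 it was -0.02.

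**Figure D2:**
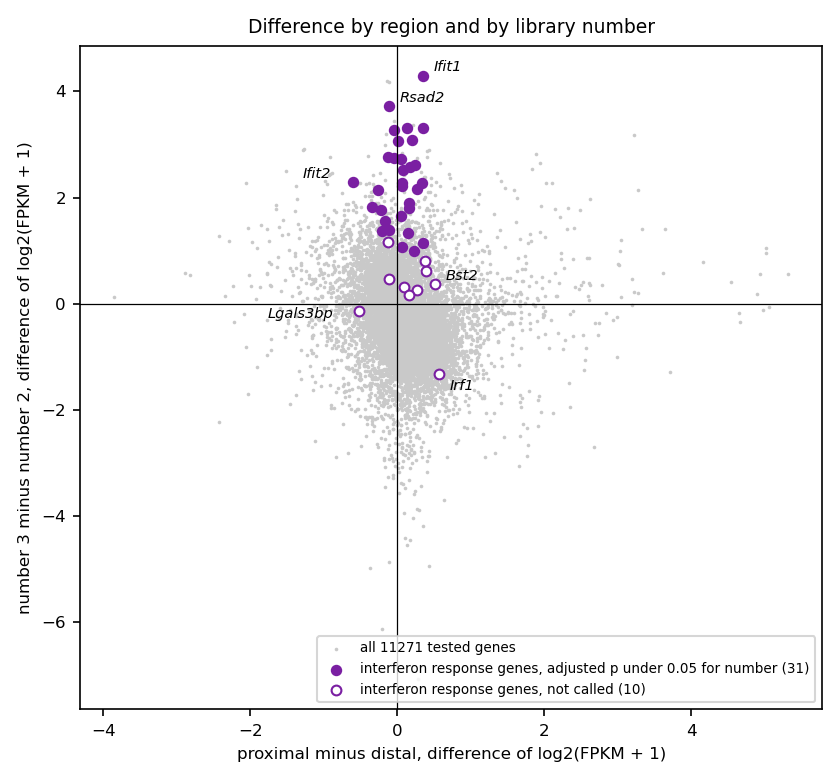
Each point is a gene, with the proximal minus distal difference on the x axis and the number 3 minus number 2 difference on the y axis, both of log2(FPKM + 1); grey points are all 11271 tested genes, filled purple points the 31 called members and open points the 10 tested members that were not called. The members form a column that is narrow in x, from -0.60 to 0.57, and reaches 4.29 in y.

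Values for single genes are given in one order from here on: distal 2 and proximal 2 first, then distal 3 and proximal 3. The interferon-induced proteins with tetratricopeptide repeats bind viral RNA ends, and their genes lie side by side on mouse chromosome 19 (mm10). All 4 of them rose in number 3. Ifit1, at 34640871 to 34650009 on the plus strand, was at 10.3 and 9.36 FPKM against 158 and 283 FPKM, a difference of 4.29 ± 0.32 (SE, adjusted p = 0.00633). It was 15.3-fold higher in number 3 within distal ducts and 30.2-fold higher within proximal ducts. Ifit3, at 34583531 to 34588731, was at 11.7 and 12.8 FPKM against 71.9 and 83.6 FPKM, 2.57 ± 0.20 higher (adjusted p = 0.00691). Ifit3b, at 34607970 to 34613401, was at 4.05 and 4.83 FPKM against 20.7 and 26.3 FPKM, or 2.16 higher (adjusted p = 0.013). The transcripts of these 2 genes are 97.8% identical over 1700 aligned bases, so fragments may have been divided between them and their separate values are uncertain. Ifit2, whose product also promotes cell death, stood at 22.7 and 19.9 FPKM against 153 and 75.0 FPKM (2.29 ± 0.37, adjusted p = 0.0276). It had the largest region difference of all members, -0.60 ± 1.06, most of which came from number 3, where proximal was 0.489 of distal.

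ISG15 is a ubiquitin-like protein that is coupled to other proteins, USP18 removes it and also blocks the type I receptor, and TRIM25 is a ligase for ubiquitin and ISG15. All 3 genes were called. Isg15, on chromosome 4 at 156199424 to 156200818 (minus strand), was at 35.8 and 35.4 FPKM against 302 and 312 FPKM, a rise of 3.07 ± 0.19 (adjusted p = 0.00617). Within each number the 2 regions were nearly level, and the region difference was 0.02 ± 1.37. Usp18 was at 3.83 and 4.34 FPKM against 38.3 and 45.9 FPKM (3.08 ± 0.21, adjusted p = 0.00617). Trim25 was at 24.2 and 23.2 FPKM against 95.2 and 72.1 FPKM (1.77 ± 0.22, adjusted p = 0.0181). Another annotated gene, AC151275.1, is 95.2% identical to Isg15 over 482 bases and could share its fragments.

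The Mx proteins are dynamin-like GTPases that trap viral nucleocapsids, and both were called at low levels. Mx1 was at 0.309 and 0.638 FPKM against 1.85 and 2.68 FPKM (1.15 ± 0.25, adjusted p = 0.0412), and Mx2 at 2.94 and 3.88 FPKM against 10.2 and 10 FPKM (1.34 ± 0.22, adjusted p = 0.0288). Laboratory strains such as C57BL/6 are known to carry a defective Mx1 allele. The pair share a stretch of 920 bases at 94.8% identity.

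The OAS enzymes make the 2-5A messenger that switches on RNase L, and OASL proteins are relatives without that activity or with less of it. Of the 4 tested, 3 were called. Oas1a was at 1.07 and 1.24 FPKM against 15.4 and 11.8 FPKM (2.75 ± 0.24, adjusted p = 0.00854), with a near copy, Oas1g, that is 97.6% identical over 1861 bases. Oasl1 was at 0.817 and 1.65 FPKM against 13.4 and 9.95 FPKM (2.52 ± 0.29, adjusted p = 0.0154), and Oasl2 at 7.51 and 8.29 FPKM against 40.2 and 40.5 FPKM (2.22 ± 0.19, adjusted p = 0.00854). Oas2 stood outside this group, at 1.16 and 2.50 FPKM against 2.49 and 2.11 FPKM, so its groups overlapped and the difference of 0.26 ± 0.30 was not called (adjusted p = 0.542). Oas3 was listed at 0 in distal 2 and at 0.0166 FPKM in proximal 2, against 0.0715 and 0.128 FPKM, and was too low to test.

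Among the transcription factors, the partners STAT2 and IRF9 of the type I complex and IRF7, which amplifies interferon production, rose, and the list had a median of 1.27 with Irf1 included. Irf7 was at 15.6 and 16.4 FPKM against 53.4 and 63.4 FPKM (1.8 ± 0.20, adjusted p = 0.014). Stat2 was at 16.7 and 18.8 FPKM against 64.3 and 45.0 FPKM (1.55 ± 0.25, adjusted p = 0.0267), and Irf9 at 24.2 and 26.2 FPKM against 44.9 and 57.3 FPKM (0.98 ± 0.22, adjusted p = 0.0402). Irf1, a factor induced quickly by interferon gamma and by inflammatory signals, lay the other way. It was at 209 and 253 FPKM in the libraries numbered 2 and at 67.8 and 125 FPKM in those numbered 3, a difference of -1.31 ± 0.35 that was not called (adjusted p = 0.0552). Irf1 was the only tested member with both number 3 values below both number 2 values, and its region difference of 0.57 ± 0.66 was the highest among the members. Irf9 shares 123 exonic bases with Rnf31 on the same strand, and Irf7 shares 45 with Phrf1 on the opposite strand. Strand could not separate the former pair, and the kit used does not mark strand, so fragments from either overlap cannot be told apart.

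The cytoplasmic RNA sensors RIG-I (Ddx58) and MDA5 (Ifih1), the nucleic acid sensor ZBP1 and the translation-blocking kinase PKR (Eif2ak2) were called, and LGP2 (Dhx58) was not. Ddx58 was at 9.61 and 10.4 FPKM against 33.3 and 22.8 FPKM (1.37 ± 0.25, adjusted p = 0.0317), and Ifih1 at 3.0 and 3.21 FPKM against 10.9 and 8.66 FPKM (1.39 ± 0.22, adjusted p = 0.0273). In both, the distal library numbered 3 was the highest of the 4. Zbp1 was at 1.71 and 1.20 FPKM against 10.7 and 8.92 FPKM (2.14 ± 0.24, adjusted p = 0.014), and Eif2ak2 at 2.31 and 2.91 FPKM against 12.1 and 12.7 FPKM (1.89 ± 0.22, adjusted p = 0.0148). Dhx58 was listed at 0 in distal 2 and stood at 0.825 FPKM in proximal 2, against 1.14 and 1.02 FPKM (0.62 ± 0.34, adjusted p = 0.219). Its region difference of 0.39 ± 0.48 rested on that listed 0, which in such tables need not mean a silent gene, and an antisense gene, Dhx58os, overlaps 141 of its exonic bases.

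The guanylate-binding proteins and immunity-related GTPases act on vacuoles that hold pathogens, and 5 of the 6 tested rose. Irgm1, on chromosome 11 at 48861968 to 48871683 (minus strand), was at 37.1 and 35.9 FPKM against 288 and 483 FPKM (3.32 ± 0.30, adjusted p = 0.00972). Iigp1 was at 33.3 and 31.0 FPKM against 319 and 323 FPKM (3.28 ± 0.20, adjusted p = 0.00617), and Igtp at 8.68 and 8.22 FPKM against 62.9 and 61.8 FPKM (2.75 ± 0.19, adjusted p = 0.00617). Irgm1 and Iigp1 were among the 5 most abundant members, with mean FPKM of 210.8 and 176.6. Gbp2 was at 12.6 and 12.6 FPKM against 51.1 and 81.4 FPKM (2.27 ± 0.28, adjusted p = 0.0166), and Gbp3 at 8.76 and 7.51 FPKM against 37.3 and 26.1 FPKM (1.82 ± 0.25, adjusted p = 0.0212). Gbp3 was lower in proximal than in distal libraries within each number, by -0.35 ± 0.87, which did not pass. Gbp7, a neighbour of both on chromosome 3, was not called, at 3.32 and 3.50 FPKM against 4.26 and 4.73 FPKM (0.32 ± 0.21, adjusted p = 0.294). An annotated pseudogene, Gm43802, shares 637 exonic bases with Gbp7 on the same strand, so the value of Gbp7 is uncertain.

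PARP9 and DTX3L form a complex that adds ADP-ribose and ubiquitin to proteins, and PARP14 is a related enzyme encoded beside them on chromosome 16. All 3 genes rose. Parp14, at 35832874 to 35871544, was at 1.41 and 2.87 FPKM against 33.9 and 25.3 FPKM (3.31 ± 0.31, adjusted p = 0.0103), which was 24.0-fold within distal and 8.83-fold within proximal ducts. Dtx3l was at 4.88 and 6.89 FPKM against 40.0 and 41.5 FPKM (2.62 ± 0.23, adjusted p = 0.00898), and Parp9 at 7.44 and 6.93 FPKM against 35.9 and 42.0 FPKM (2.28 ± 0.20, adjusted p = 0.00898). Parp9 and Dtx3l are read from opposite strands and share 458 exonic bases, so part of each value could be fragments of the other.

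Membrane and secreted effectors split into those that rose strongly and those that did not pass. Rsad2 encodes viperin, an enzyme that makes a chain-terminating nucleotide, and lies on chromosome 12 at 26442746 to 26456452 (minus strand). It was at 3.22 and 3.12 FPKM against 57.5 and 50.7 FPKM, a rise of 3.72 ± 0.20 (adjusted p = 0.00617) that was 17.9-fold within distal and 16.2-fold within proximal ducts. Its neighbour Cmpk2, a mitochondrial nucleotide kinase, was at 7.31 and 8.55 FPKM against 28.0 and 26.0 FPKM (1.65 ± 0.20, adjusted p = 0.0166). Rtp4, a receptor-transporting protein, was at 9.48 and 10.5 FPKM against 72.2 and 70.4 FPKM (2.72 ± 0.19, adjusted p = 0.00617). For these 3 genes the 2 regions were close within each number. Rtp4 shares 296 exonic bases with another annotated gene, Gm45338, on the same strand, so part of its value could be fragments of that gene.

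Ifitm3 was the most abundant member by far, at 1710 and 1565 FPKM against 2343 and 2181 FPKM. Its groups did not overlap by number, but the difference of 0.47 ± 0.31 did not pass (adjusted p = 0.292). Bst2 encodes tetherin, which holds budding virus at the cell surface, and was at 40.8 and 71.1 FPKM against 64.0 and 76.4 FPKM. It was the only member with both proximal values above both distal ones (12.9% of all tested genes had that order), with a region difference of 0.52 ± 0.36 and a number difference of 0.37 ± 0.32 (adjusted p = 0.411). Lgals3bp, a secreted galectin-binding glycoprotein, was the only member with both proximal values below both distal ones (8.64% of all tested genes), at 86.7 and 85.8 FPKM against 112 and 54.5 FPKM. Its region difference of -0.52 ± 0.37 came almost wholly from the libraries numbered 3, and its number difference was -0.14 ± 0.37 (adjusted p = 0.791), turning to 0.26 under median ratio scaling.

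Of the remaining members, Ifi35 was called, at 15.0 and 18.6 FPKM against 38.5 and 34.0 FPKM (1.07 ± 0.21, adjusted p = 0.0352). Samd9l, which restricts poxviruses, was at 4.41 and 6.28 FPKM against 16.8 and 10.1 FPKM (1.17 ± 0.32, adjusted p = 0.0583). Xaf1, a pro-apoptotic protein, was at 8.92 and 12.3 FPKM against 16.9 and 21.7 FPKM (0.81 ± 0.25, adjusted p = 0.0757), with a region difference of 0.38 ± 0.49. Neither passed as deposited, and both passed under median ratio scaling and under quantile normalization. Ifi27 was not called, at 62.7 and 60.6 FPKM against 61.1 and 78.8 FPKM (0.17 ± 0.22, adjusted p = 0.584). Ifi44, not tested, was at 0.170 and 0.0528 FPKM against 0.780 and 0.548 FPKM.

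Levels of other cell types' markers and of stress genes also differed between the libraries. The 9 fibroblast markers summed to 5661 and 6034 FPKM against 4790 and 5956 FPKM, and Dcn, which encodes the matrix proteoglycan decorin, led them with 2353 FPKM or more in each library. By number, 7 of the 9 were below 0 and 2 above, with a median of -0.36 and 0 called. Both number 3 values lay below both number 2 values for 5 of the 9 (50.4% of all tested genes). Leukocyte markers were near 0: the 12 genes summed to 2.80 to 4.52 FPKM over the 4 libraries, 2 were listed at 0 in all of them, and Ptprc, which encodes the pan-leukocyte protein CD45, reached 0.12 FPKM at most. Endothelial markers summed to 8.17 to 9.46 FPKM. The 8 epithelial markers differed by number, from 40.0 and 58.6 FPKM to 99.5 and 439 FPKM in sum, with 1 of them called (Krt14) and a median difference of 1.91. They differed by region too, with a median of 1.07 for proximal minus distal, 8 of 8 above 0 and 0 called. Proximal 3 stood apart. The 6 smooth muscle markers summed to 312 and 274.7 FPKM against 188.3 and 134.4 FPKM, with 5 of 6 below 0 (median -0.93) and 0 called, and the 6 Schwann cell and neuron markers to 2.15 and 1.75 FPKM against 4.33 and 4.81 FPKM, with 1 tested and 0 called. Of 15 genes induced by tissue dissociation, 4 were called lower in number 3 (Jun, Jund, Egr1 and Zfp36) and 0 higher. The sums were 18040 and 23510 FPKM against 8602 and 15550 FPKM, with 11 values below 0 and 4 above. Of all 11271 tested genes, 7566 had number differences below 0 (median -0.33), 14.5% were called lower and 4.29% higher. By region the 15 genes had a median of 0.71, with 13 above 0 (60.4% of all tested genes) and 0 called. Both proximal values lay above both distal ones for 6 (12.9% of all tested genes). The part of epithelial, smooth muscle or Schwann cells or of dissociation stress in the members' difference was not tested. In bulk RNA, fewer cells of a type and less RNA per cell cannot be told apart.

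The rest of the pathway was read from lists of 118 other genes, of which 89 were tested. By number 23 were called higher and 6 lower, where 4.29% of all tested genes were called higher and 14.5% lower. The median was 0.55, against -0.33 over all tested genes, and by region 0 were called. Region differences that were among the largest of their own list were -1.22 for Slfn2, 1.02 for Phf11d, -0.85 for Irf5, -0.82 for Tnfaip3 and -0.73 for Tmem173. No interferon gene reached the filter: of 10 ligand genes, 7 were listed at 0 in every library, and Ifnb1, Ifnk and Ifne reached at most 0.0597, 0.0466 and 0.365 FPKM. None of the 5 receptor chains tested was called, with a median of -0.55 where that of all tested genes was -0.33. Both number 3 values lay below both number 2 values for 4 of the 5 (50.4% of all tested genes). Ifngr1, the ligand-binding chain of the interferon gamma receptor, was at 78.9 and 72.4 FPKM against 48.1 and 33.2 FPKM (-0.90 ± 0.25, adjusted p = 0.0606), and Il10rb, a chain shared with the type III receptor, differed by -0.57 (adjusted p = 0.106).

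Below the receptors, 1 of the 7 tested kinase and IRF genes was called higher and 2 lower, both kinases. Of all tested genes, 4.29% were called higher and 14.5% lower. Tyk2 was at 2.80 and 4.02 FPKM against 0.906 and 0.916 FPKM (-1.19 ± 0.24, adjusted p = 0.0359), and Jak2 at 18.2 and 14.5 FPKM against 7.14 and 8.10 FPKM (fell by 1.0, adjusted p = 0.0402). Jak1, with no call, had a number difference of 0.16 and a region difference of -0.67 ± 0.30. Irf8, a factor best known from myeloid cells, was called higher, at 6.66 and 3.79 FPKM against 18.4 and 14.8 FPKM (1.53 ± 0.30, adjusted p = 0.0346). Of 10 tested genes for nucleic acid sensing and its signalling, 1 was called: Mavs, the mitochondrial adaptor of RIG-I, fell from 12.0 and 15.4 FPKM to 3.74 and 3.44 FPKM (-1.67 ± 0.23, adjusted p = 0.0206).

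Negative regulators moved both ways, with 2 of 12 called higher and 3 lower (4.29% and 14.5% of all tested genes). The median of the list was 0.19, against -0.33 over all tested genes. Trex1, a DNase that clears cytoplasmic DNA, was at 41.3 and 31.6 FPKM against 153 and 145 FPKM (2.02 ± 0.22, adjusted p = 0.014), and Adar, an RNA-editing enzyme, rose by 1.0 (adjusted p = 0.039). Socs3, a feedback inhibitor of JAK kinases, fell from 544 and 702 FPKM to 170 and 221 FPKM (-1.67 ± 0.28, adjusted p = 0.0285). Irf2bp2, a corepressor, fell from 41.9 and 35.2 FPKM to 3.46 and 5.79 FPKM (-2.84 ± 0.28, adjusted p = 0.0112), and Pias1, a SUMO ligase, differed by -0.83 (adjusted p = 0.0498).

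The other lists of induced genes held no gene called lower, where 14.5% of all tested genes were called lower and 4.29% higher. Of 40 further antiviral genes tested, 10 were called higher and 0 lower (median 0.72), led by Rnf213, a large ubiquitin ligase, at 5.54 and 5.86 FPKM against 54.4 and 51.8 FPKM (3.01 ± 0.19, adjusted p = 0.00617). These 40 did not all move the same way, with 27 values above 0 and 13 below. Both number 3 values lay above both number 2 values for 23 (20.2% of all tested genes) and below them for 8 (50.4%). Of 12 further guanylate-binding, immunity-related GTPase and IFI200 genes, 8 were called higher and 0 lower (median 2.16), among them Ifi47 at 2.94 and 3.91 FPKM against 25.1 and 28.9 FPKM (2.67 ± 0.23, adjusted p = 0.00854). Irgm2 was at 4.70 and 4.61 FPKM against 30.9 and 24.6 FPKM (2.34 ± 0.22, adjusted p = 0.00986) and shares 162 exonic bases with Igtp. Of 3 chemokine genes tested, 2 were called. Cxcl10, a T cell attractant, was at 423 and 271 FPKM against 1125 and 975 FPKM (1.63 ± 0.32, adjusted p = 0.0346), and Cxcl9 at 4.96 and 3.35 FPKM against 20.2 and 9.91 FPKM (1.58 ± 0.38, adjusted p = 0.0477).

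**Figure D3:**
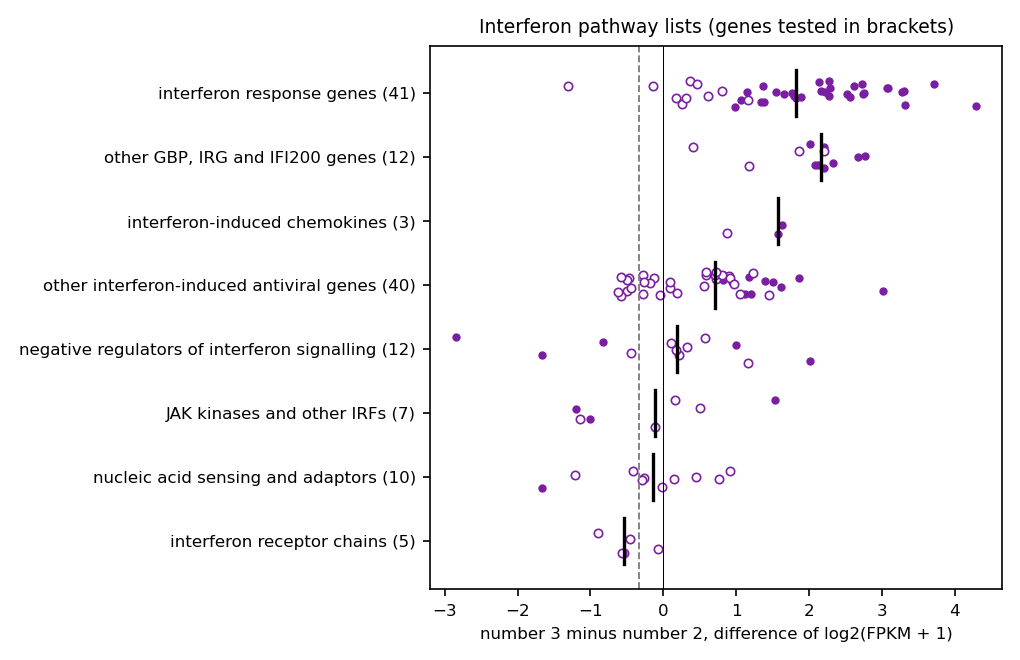
Number 3 minus number 2 difference of log2(FPKM + 1) for each tested gene of the pathway lists and of the members (rows, with the number of tested genes in brackets); each point is a gene, filled where called, the black bars are list medians and the dashed line is the median of all tested genes. The members and the further GTPase and IFI200 genes lie mostly to the right of 0, with list medians of 1.82 and 2.16. The receptor chains lie to the left, with a median of -0.55, where the median of all tested genes is -0.33.

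The letters ahead of the members' start sites were read for the 2 motifs of the pathway. RefSeq windows of the GRCm38.p6 build, from 250 bases before to 50 after a gene's start, were matched for 32 of the 43 members. The ISRE was searched as GAAA, any 2 bases and GAAA again, and the GAS as TTC, any 3 bases and GAA, on both strands and with overlapping matches counted; the 2 motifs can overlap each other. The ISRE letters were in the windows of 18 of the 32 members (56.2%) and of 3.99% of all 27025 genes with a window, and the GAS letters in those of 9 members (28.1%) and of 9.55% of all genes, where a gene with several windows counts if any of them matches. By single windows the shares over all 32851 were 3.44% and 8.3%. Among tested members, 14 of the 17 with the ISRE letters were called higher in number 3 (median difference 2.16), as were 9 of the 13 without them (median 1.65). Among other tested genes, 4.93% of the 304 with the ISRE letters were called higher and 4.02% of the 8479 without, with medians of -0.17 and -0.36. For the GAS letters the members' order was the reverse: 5 of the 9 tested with them were called (median 1.07), against 18 of the 21 without (median 1.82). Of the other tested genes, 5.2% of the 712 with the GAS letters were called higher and 3.95% of the 8071 without, with medians of -0.26 and -0.36. Of the tested members with the ISRE letters, Bst2, Gbp7 and Ifitm3 were not called. The sites below are from some of the called members and, for contrast, from Bst2 and Gbp7. Each is given 5′ to 3′ along the gene with 10 bases on either side, the motif is in capitals, and one that begins with TTTC is the ISRE read on the other strand. Other ISRE matches of the same gene are not marked in these stretches. Some of their bases stand in the flanks in lower case, as for Isg15, Irgm1, Oas1a and Bst2.
Ifit1 (chr19:34640794-34640823, plus): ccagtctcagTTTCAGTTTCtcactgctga
Ifit3 (chr19:34583397-34583426, plus): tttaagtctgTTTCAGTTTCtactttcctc
Ifit3b (chr19:34607793-34607822, plus): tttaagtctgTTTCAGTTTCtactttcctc
Isg15 (chr4:156200871-156200900, minus): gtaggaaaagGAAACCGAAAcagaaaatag
Irgm1 (chr11:48871425-48871454, minus): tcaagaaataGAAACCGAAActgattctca
Igtp (chr11:58199512-58199541, plus): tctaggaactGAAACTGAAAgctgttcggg
Rsad2 (chr12:26456553-26456582, minus): ctggtccaacTTTCATTTTCagaaaacaga
Oas1a (chr5:120907520-120907549, minus): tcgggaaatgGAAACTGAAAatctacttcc
Gbp2 (chr3:142620594-142620623, plus): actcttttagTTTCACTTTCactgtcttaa
Stat2 (chr10:128270266-128270295, plus): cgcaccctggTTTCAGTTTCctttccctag
Bst2 (chr8:71537577-71537606, minus): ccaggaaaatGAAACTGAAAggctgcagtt
Gbp7 (chr3:142530273-142530302, plus): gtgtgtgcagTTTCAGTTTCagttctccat

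The printed sites of Ifit3 and Ifit3b have the same letters, like their transcripts. The Isg15 window is shown at greater length because 3 ISRE matches overlap in it, in 1 run of capitals.
Isg15, 250 bases before the start (chr4:156200819-156201068, minus): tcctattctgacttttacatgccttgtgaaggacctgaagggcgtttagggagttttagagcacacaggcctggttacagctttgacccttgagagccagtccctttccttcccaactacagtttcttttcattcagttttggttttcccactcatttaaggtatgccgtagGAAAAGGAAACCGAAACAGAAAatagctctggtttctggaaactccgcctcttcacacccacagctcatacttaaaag
Irf1, which lay lower in number 3, had no ISRE match in its 2 windows and a GAS match 90 bases before the start, here in capitals.
Irf1 (chr11:53769914-53769942, plus): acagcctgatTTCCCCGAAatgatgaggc
A match of letters is a description and not a bound site, and a window without one says nothing about the factors.

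**Figure D4:**
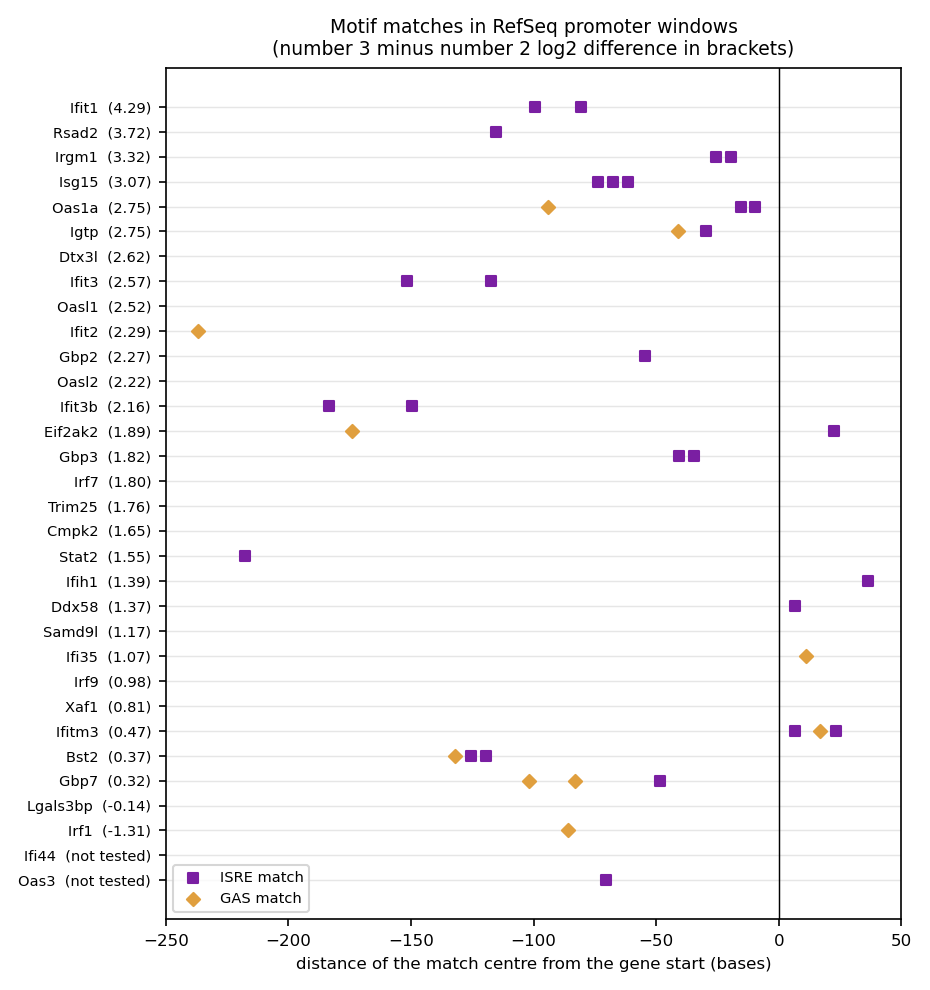
Positions of ISRE (squares) and GAS (diamonds) matches in the RefSeq windows of the members that hold one, as the distance of the match centre from the gene start in bases; the number 3 minus number 2 difference of each gene is in brackets. Bst2 (0.37) and Gbp7 (0.32) hold ISRE matches beside genes such as Ifit1 (4.29) and Rsad2 (3.72).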

How the data were processed

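Stromal RNA was measured in 4 libraries. Per the labels' protocols, cDNA was made with the SMART-Seq v4 kit, which amplifies by PCR, and TruSeq DNA libraries were sequenced on an Illumina HiSeq. The tools named in the submitters' processing notes are Cufflinks 0.0.6, TopHat2 0.6 and bcl2fastq 1.8.3, and the build is mm10; which step each served is not given in the sources used here, nor are settings. The deposited FPKM values, with lower and upper bounds, are per transcript, scaled to length and mapped fragments, per the file headers. The deposited coverage signal per FPKM, which moves with depth, had a median between 5.22 (proximal 2) and 6.34 (distal 3); absolute depth is unknown, so no count model was used. Between 10148 and 11455 genes reached 1 FPKM in a library.

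Tables were joined by transcript identifier. Each of the 63241 transcripts was given a gene name from its position in the GENCODE M21 annotation: 55609 (87.93%, holding 96.34% of summed FPKM) took one, and FPKM was summed by symbol. All 43 members matched a name. The 7 genes with a failed or capped estimate, 0 of them members, were left out. limma 3.58.1 (R 4.3.3) was fitted to log2(FPKM + 1) of genes at 1 FPKM or more in at least 2 libraries, once by region and once by number, with Benjamini-Hochberg adjustment, and was tested on simulated data. Each simulated comparison held changes of its own kind only, so it does not show how the spread between numbers affects the region test. An exact permutation test of 2 against 2 cannot go below 0.333 (two-sided), so none is given. Values were printed for members called in either comparison, the 8 with the largest difference in each, the 5 most abundant and those listed at 0 in some libraries; the rest were added to account for each member. Among the other pathway genes, called ones or the 2 with the largest difference per list were eligible. Similar transcripts were those with at least 90% identity over 300 bases. Alternatives were the pseudocount, the filter, the scaling, the naming, the variance trend, a replicate block and leaving out each library. An item on the pathway lists is not reported here. The members and lists were chosen with earlier results of these data known.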

Additional observations from a re-analysis of the deposited data

Results flagged for a closer look

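For 3 members the difference between numbers had opposite signs in the 2 regions, and that contrast between regions was not tested. Oas2 was higher in number 3 by 0.69 (log2 of FPKM + 1) within distal ducts and differed by -0.17 within proximal ducts. Lgals3bp differed by 0.36 within distal and by -0.65 within proximal ducts. Ifi27 differed by -0.037 within distal and by 0.37 within proximal ducts. None of the 3 was called between numbers.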

How the results depend on the processing

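The members' higher level in number 3 kept its direction in each alternative run. Their median difference between numbers of 1.82 was 2.08 with a pseudocount of 0.1, 2.14 with a filter of 5 FPKM, 2.08 after quantile normalization, 2.20 under median ratio scaling and 1.77 to 1.94 with 1 library left out. Of the 31 called members, 17 were called with no filter and 0 to 22 with 1 library left out; the other alternatives called 30 to 34, and shared 30 or 31 with the 31. Over all genes, 2118 calls between numbers became 172 with no filter, 1328 after quantile normalization and 0 to 388 with 1 library left out, which leaves a lone library whose spread is assumed to be like that of the other pair.

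The region comparison called 0 members in each alternative. Over all genes it called 0 as deposited and 0 to 40 with 1 library left out, and such fits mix region with number. The members' median region difference of 0.07 became -0.034 after quantile normalization and -0.033 under median ratio scaling, and ranged from -1.0 to 0.94 with 1 library left out. In the same fits the region differences ranged from -1.96 to 0.75 (Ifit2), -0.24 to 1.38 (Irf1), -0.16 to 0.94 (Dhx58), -0.047 to 0.81 (Xaf1), -2.04 to 2.74 (Ifit1) and -1.34 to 0.64 (Gbp3), changing sign. Number differences changed sign with 1 library left out for Oas2 (-0.088 to 0.61), Bst2 (-0.024 to 0.76), Lgals3bp (-0.65 to 0.37) and Ifi27 (-0.012 to 0.35), and for Lgals3bp under median ratio scaling (0.26). Apart from the left-out libraries and the scalings, whose construction mixes or moves the values, the cause was not tested.

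With the library number as a replicate block, 464 genes were called between regions, 0 of them members, and with region as the block 5577 genes and 34 members were called between numbers, adding Irf1 (lower), Samd9l and Xaf1. Across genes, the number difference in distal correlated with that in proximal libraries (r = 0.815). The labels do not say what the numbers stand for, so the numbers were not taken to pair the libraries. Depth in fragments is unknown, so the precision of low genes such as Oas3, Dhx58 and Ifi44 cannot be given.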

Other observations

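The IFI200 genes encode nuclear and cytoplasmic DNA-binding proteins, and Ifi203 and Mndal among them had the largest absolute region differences of the 89 pathway genes tested. In the order distal 2, proximal 2, distal 3, proximal 3, Ifi203 was at 18.1, 4.61, 62.5 and 21.1 FPKM and Mndal at 9.13, 2.87, 45.4 and 17.1 FPKM. Distal was above proximal within each number for both, with region differences of -1.65 ± 0.88 and -1.37 ± 1.03 (limma, SE), neither of which was called. Ifi205 was at 29.1 and 11.3 FPKM against 158 and 108 FPKM, and Ifi204 at 6.03 and 3.85 FPKM against 33.5 and 16.7 FPKM, both called higher in number 3 (adjusted p = 0.0297 and 0.0329, limma). These genes were set apart after their values were seen.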
